A study of Homo sapiens with 17 samples.

Results

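The transcripts of 10 genes of the oxidative stress response were followed through oncogene-induced senescence and the knockdown of SMARCA4: NFE2L2, NQO1, HMOX1, GCLC, GCLM, SLC7A11, TXNRD1, SRXN1, SOD2 and NOX4. They were chosen by name, with earlier results of these data known, and all 10 were found among the 62754 genes counted and passed the low-count filter that left 19473 genes tested. The cells were IMR90 ER:RAS, human lung fibroblasts transduced with a retrovirus that encodes activated RAS (RASG12V in the labels) fused to an oestrogen receptor domain. 4-hydroxytamoxifen (4OHT) switches the fusion on and drives the cells into senescence, and DMSO was its control. Every library carried the ER:RAS construct and a transfected siRNA, given a day ahead of 4OHT or DMSO, and RNA was taken at the end of the week that followed. The groups were DMSO with a non-targeting siRNA (DMSO siNT, n = 5), 4OHT with the same control (4OHT siNT, n = 6) and 4OHT with an siRNA against SMARCA4, the gene of an ATPase that powers SWI/SNF chromatin remodelling (4OHT siSMARCA4, n = 6). There was no library with DMSO and siSMARCA4, so the effect of the knockdown outside senescence was not measured. Labels do not say which libraries came from separate cultures, so p-values measure the spread between these libraries, which may be technical.

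NRF2, the protein product of NFE2L2, is a transcription factor that is held at low levels by the ubiquitin ligase adaptor KEAP1 and escapes it when cells meet oxidants or electrophiles. It then pairs with small MAF proteins, competes with the repressor BACH1 and switches on genes whose promoters or enhancers carry an antioxidant response element. These targets make glutathione (GCLC, GCLM, SLC7A11), run the thioredoxin system (TXNRD1, SRXN1) and deal with quinones and haem (NQO1, HMOX1). SOD2, the mitochondrial superoxide dismutase, is better known as a target of NF-κB. NOX4, an NADPH oxidase that produces hydrogen peroxide, is a source of oxidants rather than a defence.

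Libraries held 39.1 to 68.98 M counts, and levels are given as CPM, counts scaled to a common library total with TMM factors between libraries. A gene was called where edgeR's quasi-likelihood test gave a Benjamini-Hochberg adjusted p under 0.05 over all genes tested. SMARCA4 stood at 68.4 to 127 CPM in the siSMARCA4 libraries and at 253 to 286 CPM in the 4OHT siNT libraries, without overlap. Labels further carry an siRNA number, 2 or 4, and a closing V or VM that is not explained. VM was the ending of all 6 libraries of 4OHT siNT, 3 of 6 of siSMARCA4 and 3 of 5 of DMSO. In names such as 2-3V the siRNA number is followed by a replicate number. DMSO siNT libraries of number 4, 4-2VM and 4-3VM, were both VM, and those of number 2 were 2-1V, 2-2V and 2-2VM. Fits of number 4 alone against DMSO therefore rest on few libraries and drop the V libraries of DMSO. The siSMARCA4 libraries 2-3V and 2-3VM differ in the ending alone, as do 4-2V and 4-2VM, and 2-2V and 2-2VM of DMSO siNT. Whether such libraries share a culture is not given, so these groups may hold fewer cultures than libraries. The cells kept the marker VIM, but the summed level of 9 fibroblast markers fell from a median of 26730 CPM in DMSO siNT to 15270 CPM in 4OHT siNT and 9361 CPM in 4OHT siSMARCA4, with 7 of 9 called lower at each step. Of the markers of other cell types, KRT5 was at 0 in all group means, and CDH1, CDH5, PTPRC and CD3E had means under 0.1 CPM. Other markers on those lists were detected: KRT18 had means of 40.4 to 63.3 CPM, KRT8 of 9.54 to 17.7 CPM and CD68 of 22.5 to 25.9 CPM. The knockdown lowered all 3 epithelial markers tested, KRT8 by 0.39 (adjusted p 0.00363), KRT18 by 0.55 (adjusted p 0.00752, without overlap) and EPCAM by 0.84 (adjusted p 0.0318), and their list of 5 summed to 65.3 to 81.8 CPM in 4OHT siNT and 35.3 to 58.4 CPM in 4OHT siSMARCA4. With 4OHT the endothelial markers PECAM1 and VWF rose, from 0.0145 to 0.936 CPM (adjusted p 3.37e-08) and from 1.11 to 3.76 CPM (adjusted p 1.24e-05). PECAM1 fell with the knockdown, to 0.341 CPM (log2 fold change -1.43, adjusted p 0.00460, without overlap), and VWF was at 2.60 CPM (adjusted p 0.107). Senescence markers moved as well. With 4OHT all 5 on the list changed without overlap: the cell cycle inhibitors CDKN1A, CDKN2A and CDKN2B rose, to 2012, 115 and 352 CPM from 856, 49.0 and 21.9 CPM, and the lamin LMNB1 and the proliferation marker MKI67 fell, to 1.46 and 0.879 CPM from 25.8 and 45.2 CPM. With the knockdown the 3 inhibitors fell without overlap, to 1502, 73.1 and 223 CPM, while LMNB1 and MKI67, at 1.93 and 1.25 CPM, were not called. The part of these marker changes in the members’ results was not tested. Fewer cells of a type and less RNA per cell cannot be told apart in such bulk samples.

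Promoter letters are shown for the 2 members in which the core of the antioxidant response element was found. The letters TGACNNNGC were searched on both strands in RefSeq promoters (GRCh38.p14), from 250 bases before the start to 50 after it, where 13.3% of all 35116 promoters hold a match. The promoter table held 8 of the 10 members, all but HMOX1 and SLC7A11, with 15 promoters, of which 3 hold a match. The 7 promoters of NFE2L2, NQO1 and SOD2 hold 0. Each window is printed in the direction of the gene, with the match in capitals, and a match on the opposite strand appears as its reverse complement.
GCLM, chr1:93909446-93909474, match on the opposite strand from -34 to -26: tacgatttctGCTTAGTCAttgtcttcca
TXNRD1, upstream promoter, chr12:104215670-104215698, match on the gene's strand from -99 to -91: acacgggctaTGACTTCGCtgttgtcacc
TXNRD1, downstream promoter, chr12:104286920-104286948, match on the opposite strand from -102 to -94: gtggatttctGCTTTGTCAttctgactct
The AP-1 letters TGANTCA, which can overlap this element, were in 7.71% of promoters and in 0 of the members' promoters, and both motifs overlapped in 0.561% of promoters. A match is a run of letters, not evidence of binding, and enhancers lie outside these windows.

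**Figure D1:**
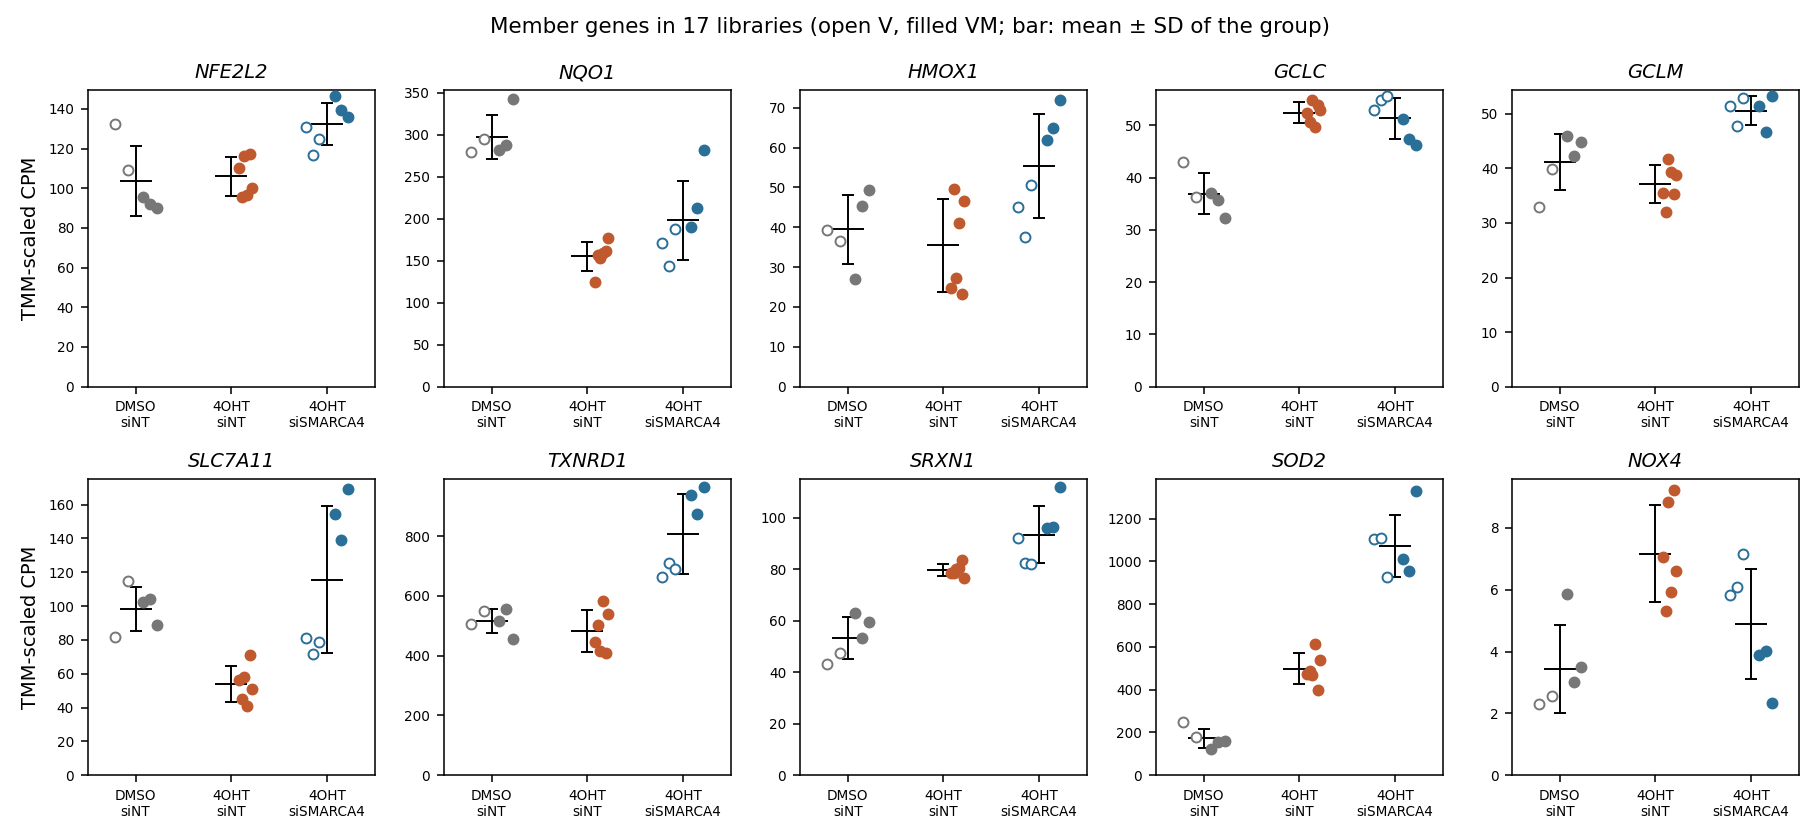
Level of each member in every library, in TMM-scaled CPM on a linear axis from 0, by group (open circles V, filled circles VM, black bars mean ± SD of the group). SOD2 steps up from DMSO siNT to 4OHT siNT to 4OHT siSMARCA4 without overlap, and SLC7A11 in 4OHT siSMARCA4 lies at 71.9 to 80.9 CPM in V and at 139 to 169 CPM in VM libraries.

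Knockdown of SMARCA4 in senescent cells raised 7 of the 10 members and lowered 0. These were SLC7A11 and SOD2, each by more than 2-fold, TXNRD1, HMOX1, GCLM, NQO1 and NFE2L2. The background in this comparison was 10.4% of all genes called higher and 13.8% called lower, and since the members were chosen with earlier results known, their count is a description. Libraries of siSMARCA4 and siNT did not overlap for 4 members, GCLM, SLC7A11, TXNRD1 and SOD2, where 12% of all genes were free of overlap. The median log2 fold change of the members was 0.40, beside -0.02 over all genes tested. Of 95 further genes of the same pathways, 87 were tested, of which 18 were higher and 14 lower, with a median of 0.04. GCLC, SRXN1 and NOX4 were not called.

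Without the knockdown, 4OHT moved the members in both directions. Exposure to 4OHT, active RAS and senescence come together in these libraries and cannot be told apart. In siNT cells 4OHT raised SOD2, NOX4, SRXN1 and GCLC and lowered NQO1 and SLC7A11, while NFE2L2, HMOX1, GCLM and TXNRD1 were not called. That is 4 of 10 higher, where 27% of all genes were called higher, and 2 of 10 lower, where 27.4% were called lower. The libraries of 5 members did not overlap, in a comparison in which 39.6% of all genes were free of overlap. The members' median log2 fold change was -0.03, beside 0.00 over all genes tested, and of the 87 further pathway genes 20 were higher and 38 lower, with a median of -0.15.

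**Figure D2:**
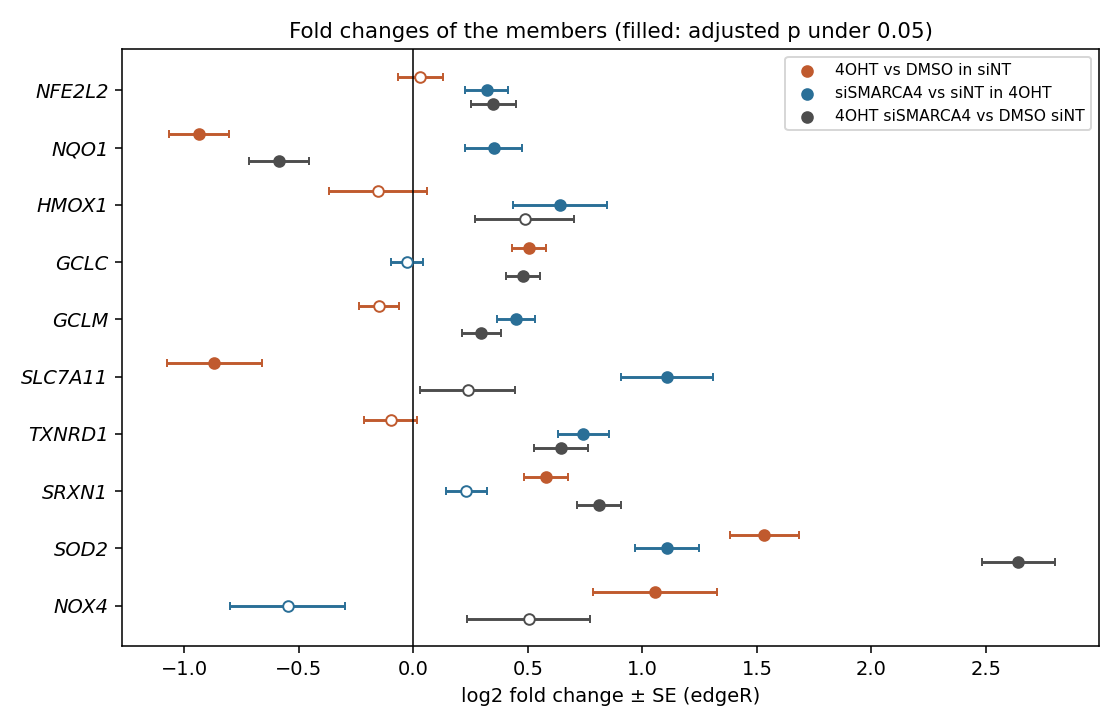
Log2 fold change of each member (horizontal axis, ± SE, edgeR) in 3 comparisons that share libraries (filled symbols, adjusted p under 0.05). SLC7A11 and NQO1 lie below 0 for 4OHT and above 0 for siSMARCA4, and SOD2 lies above 0 in all 3.

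NFE2L2 (ENSG00000116044; GRCh38 2:177218667-177392756, minus strand) was not called with 4OHT and rose modestly with the knockdown. Its levels in the DMSO libraries were 132, 109, 95.7, 92.0 and 89.8 CPM. In 4OHT siNT they ran from 95.5 CPM through a median of 105 to 117 CPM, within the DMSO range. In 4OHT siSMARCA4 they ran from 117 CPM through a median of 133 to 146 CPM, with the lowest library just inside the siNT range. The log2 fold change with siSMARCA4 was 0.32 (SE 0.09, adjusted p 0.0182), against 0.03 (SE 0.10, adjusted p 0.821) for 4OHT. With only the libraries of siRNA number 2 the rise was 0.32 and not called (adjusted p 0.0650), and with only those of number 4 it was 0.41 and not called (adjusted p 0.0502), while a fit over the 12 4OHT libraries called it for number 2 (0.29, adjusted p 0.0263) and for number 4 (0.36, adjusted p 0.0123). NRF2 is controlled mainly through protein stability, which transcript levels do not measure.

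Among the regulators of NRF2, BACH1, the repressor that competes for the same elements, rose with the knockdown from 52.9 ± 3.11 to 74.0 ± 6.16 CPM (SD, n = 6 in both groups) without overlap, a log2 fold change of 0.48 (SE 0.10, adjusted p 0.00206). KEAP1 was at 97.6 ± 5.68 and 97.4 ± 20.2 CPM in those groups (log2 fold change -0.00, SE 0.12, adjusted p 0.991). It had risen with 4OHT from 74.2 ± 7.79 CPM in DMSO (log2 fold change 0.40, SE 0.13, adjusted p 0.0120). The log2 ratio of NFE2L2 to KEAP1 within a library was 0.35 higher in siSMARCA4 than in siNT libraries (exact permutation test, 2-sided, adjusted p 0.0117 over 9 ratio tests), with overlap. Without the siSMARCA4 library 4-3V, at 1.06, it was 0.24 higher (exact permutation adjusted p 0.0195). Of 14 NRF2 control genes listed, the knockdown raised 4 and lowered 2, and 4OHT raised 7 and lowered 1. For this list and those that follow, the knockdown raised 10.4% and lowered 13.8% of all genes tested. With 4OHT these shares were 27% and 27.4%. Small MAF partners led the rises with 4OHT: MAFF went from 37.7 ± 5.32 to 152 ± 21.9 CPM (log2 fold change 2.01, SE 0.15, adjusted p 1.95e-09) and MAFK from 48.9 ± 9.39 to 113 ± 7.07 CPM. RBX1, the RING subunit of the KEAP1 ligase, fell with 4OHT by 0.47 on the log2 scale (SE 0.11, adjusted p 0.00136). PGAM5 and DPP3, both known to bind KEAP1, fell with the knockdown by 0.26 and 0.21.

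Glutathione synthesis depends on cystine brought in by SLC7A11, the light chain of the xCT exchanger, and on glutamate-cysteine ligase, made of the catalytic subunit GCLC and the modifier subunit GCLM. These 3 genes followed different courses. SLC7A11 (ENSG00000151012; 4:138164097-138242349, minus strand) stood at 81.4, 115, 102, 104 and 88.7 CPM in DMSO. It ran from 41.0 CPM through a median of 53.7 to 71.2 CPM in 4OHT siNT, below every DMSO library. With siSMARCA4 it ran from 71.9 CPM through a median of 110.0 to 169 CPM, above every siNT library. The fall with 4OHT had a log2 fold change of -0.87 (SE 0.21, adjusted p 0.00161). The rise with siSMARCA4 was 1.11 (SE 0.20, adjusted p 0.000805), the 871st largest absolute change of 19473 genes. Against DMSO the siSMARCA4 libraries were not separated (log2 fold change 0.24, SE 0.21, adjusted p 0.360), with values from 0.097 without siSMARCA4 4-2VM to 0.34 without siSMARCA4 4-2V. Among VM libraries alone the difference from DMSO was 0.64 and called (adjusted p 0.00744), and the 3 VM libraries of siSMARCA4, at 139 to 169 CPM, lay above every DMSO library.

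GCLC (ENSG00000001084; 6:53497341-53616970, minus strand) rose with 4OHT and was not moved further. DMSO libraries were at 43.0, 36.4, 37.1, 35.8 and 32.2 CPM. Levels ran from 49.6 CPM through a median of 52.6 to 54.9 CPM in 4OHT siNT and from 46.2 through 52.2 to 55.6 CPM in 4OHT siSMARCA4, both above every DMSO library. Log2 fold changes were 0.51 (SE 0.07, adjusted p 1.07e-05) with 4OHT and -0.03 (SE 0.07, adjusted p 0.815) with siSMARCA4. GCLM (ENSG00000023909; 1:93885199-93909456, minus strand) did the opposite. It was at 32.9, 39.9, 46.0, 42.2 and 44.8 CPM in DMSO and from 32 through 37.1 to 41.8 CPM in 4OHT siNT, which overlapped (log2 fold change -0.15, SE 0.09, adjusted p 0.152). Without the DMSO library 2-1V, the lowest of its group, the fall was called (-0.24, adjusted p 0.0167), as it was among VM libraries alone (-0.28, adjusted p 0.0166). With siSMARCA4 it ran from 46.7 through 51.5 to 53.2 CPM, above all libraries of both other groups (log2 fold change against siNT 0.45, SE 0.08, adjusted p 0.000855).

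The subunits of the ligase were therefore compared within each library, since such a ratio does not depend on library scaling. The log2 ratio of GCLM to GCLC, in CPM without length scaling, was 0.15 ± 0.33 in DMSO siNT (SD, n = 5), -0.50 ± 0.13 in 4OHT siNT (n = 6) and -0.02 ± 0.13 in 4OHT siSMARCA4 (n = 6). It was 0.66 lower with 4OHT (difference -0.66, exact permutation adjusted p 0.0130), where 1 DMSO library, at -0.39, reached into the 4OHT range. With siSMARCA4 it was 0.48 higher than with siNT, without overlap (exact permutation adjusted p 0.00974). The siSMARCA4 and DMSO libraries differed by -0.17, which was not separated (exact permutation adjusted p 0.302), although it passed without the DMSO library 2-1V (-0.31, adjusted p 0.0245).

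**Figure D3:**
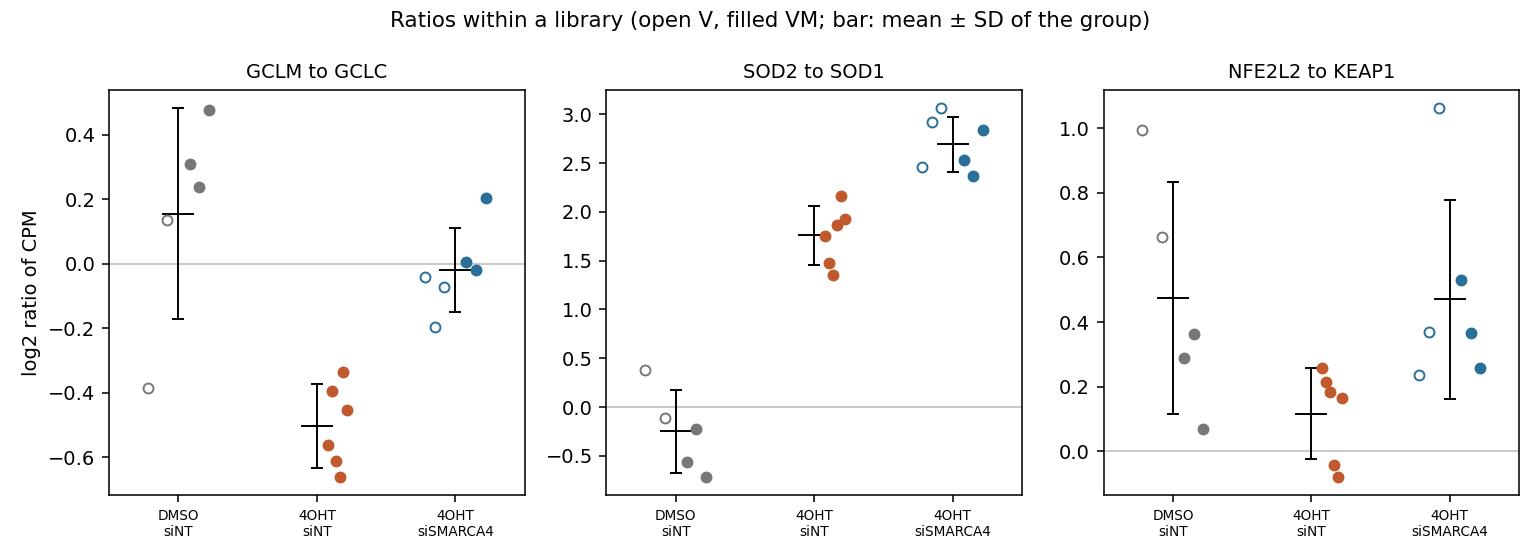
Log2 ratio of GCLM to GCLC, SOD2 to SOD1 and NFE2L2 to KEAP1 in each library (vertical axis, CPM without length scaling), by group (open V, filled VM, bars mean ± SD). The GCLM to GCLC ratio is at or below -0.33 in every 4OHT siNT library and at or above -0.20 in every 4OHT siSMARCA4 library.

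Elsewhere in glutathione metabolism the knockdown raised 3 and lowered 2 of 18 genes, and 4OHT raised 5 and lowered 8. GSR, which regenerates reduced glutathione, rose with the knockdown from 59.9 ± 2.95 to 82.6 ± 10.3 CPM (log2 fold change 0.46, SE 0.07, adjusted p 0.000300) without overlap. GPX3, a secreted glutathione peroxidase, fell at both steps, from 10.5 ± 3.52 CPM in DMSO to 1.61 ± 0.295 CPM in 4OHT siNT and 0.658 ± 0.249 CPM in 4OHT siSMARCA4. GPX7 fell with 4OHT by 1.30 on the log2 scale, and the gamma-glutamyltransferases GGT1 and GGT5 rose by 1.25 and 0.90.

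Thioredoxin reductase 1, which keeps thioredoxin reduced at the expense of NADPH, was the most abundant member per kilobase of merged exons in both 4OHT groups. In mean CPM without length scaling, SOD2 stood above TXNRD1 there, at 497 against 482 in siNT and 1072 against 807 in siSMARCA4. TXNRD1 (ENSG00000198431; 12:104215779-104350307, plus strand) was at 506, 548, 515, 557 and 457 CPM in DMSO. It ran from 407 CPM through a median of 475 to 583 CPM in 4OHT siNT, spanning the DMSO values (log2 fold change -0.10, SE 0.12, adjusted p 0.498), although with siRNA number 2 alone it was lower (-0.34, adjusted p 0.0331). With siSMARCA4 it ran from 665 through 792 to 965 CPM, above every library of the other groups (log2 fold change 0.74, SE 0.11, adjusted p 0.000160). With siRNA number 4 alone, 3 libraries in each group, the rise was 0.58 and not called (adjusted p 0.0581).

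SRXN1, the sulfiredoxin that repairs over-oxidised peroxiredoxins, rose with 4OHT. SRXN1 (ENSG00000271303; 20:646615-653200, minus strand) was at 43.3, 47.5, 62.9, 53.2 and 59.3 CPM in DMSO and ran from 76.3 through 79.4 to 83.4 CPM in 4OHT siNT, without overlap (log2 fold change 0.58, SE 0.10, adjusted p 4.12e-05). With siRNA number 4 alone, which left DMSO with 4-2VM and 4-3VM, the rise was 0.43 and not called (adjusted p 0.0515). In 4OHT siSMARCA4 it ran from 81.8 through 93.9 to 112 CPM, and the further difference of 0.23 (SE 0.09, adjusted p 0.0689) missed the threshold. Leaving out the siSMARCA4 library 4-2V (adjusted p 0.0409) or 4-3V (adjusted p 0.0390) brought it past. Of 24 alternatives in processing 7 called this difference, a replicate block among them. The level of SRXN1 is uncertain because ENSG00000270299 (20:646626-675800) overlaps it on the same strand, and SRXN1 received 50.15% to 51.58% of the counts of the pair. Summed, the pair gave 0.57 with 4OHT (adjusted p 4.01e-05) and 0.24 with siSMARCA4 (adjusted p 0.0548).

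The remaining thioredoxin and peroxiredoxin genes were mixed, with 2 of 14 higher and 4 lower after the knockdown and 4 higher and 5 lower after 4OHT. TXN, thioredoxin itself, rose with the knockdown from 246 ± 27.0 to 405 ± 64.5 CPM (log2 fold change 0.72, SE 0.15, adjusted p 0.00195), and PRDX1 by 0.30 (adjusted p 0.0173). TXN had fallen with 4OHT (log2 fold change -0.39, adjusted p 0.0376). Its inhibitor TXNIP went the other way at both steps: it rose with 4OHT from 46.6 ± 10.4 to 130.0 ± 7.05 CPM and fell with the knockdown to 70.5 ± 32.4 CPM (log2 fold change -0.88, SE 0.22, adjusted p 0.00838). SESN3 fell at both steps, by 1.64 and 1.84, TXNRD3 had a log2 fold change of -1.57 with 4OHT, and PRDX2 rose with 4OHT by 0.64. NADPH, which the reductases consume, is supplied by a list of 6 genes, of which 4OHT lowered 3, including ME1 by 0.86, and raised 0. The knockdown lowered 2, including the pentose phosphate enzyme TKT by 0.40 (SE 0.06, adjusted p 0.000107), and raised 0. Genes such as TXN and PRDX1 have near-identical pseudogenes that can share their reads, so these levels are uncertain.

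NQO1, the quinone reductase used most often as a readout of NRF2, was lower with 4OHT. NQO1 (ENSG00000181019; 16:69706996-69726668, minus strand) was at 279.8, 295, 281, 288 and 342 CPM in DMSO and ran from 125 CPM through a median of 158 to 177 CPM in 4OHT siNT, well below them (log2 fold change -0.94, SE 0.13, adjusted p 5.87e-06). In 4OHT siSMARCA4 it ran from 144 through 189 to 282 CPM, overlapping siNT (log2 fold change 0.35, SE 0.12, adjusted p 0.0475). This rise was called only narrowly. It was lost on leaving out any of 9 of the 12 libraries, namely siNT 2-1VM, 4-1VM, 2-2VM, 4-2VM and 2-3VM and siSMARCA4 2-1VM, 2-3VM, 4-2VM and 4-3V, and was 0.22 (adjusted p 0.130) without siSMARCA4 4-2VM. Even with siSMARCA4 the level stayed below DMSO (log2 fold change -0.59, SE 0.13, adjusted p 0.000771), a call missed with siRNA number 4 alone (-0.63, adjusted p 0.0631). Number 4 alone left DMSO with 4-2VM and 4-3VM.

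HMOX1, the inducible haem oxygenase and a gene repressed by BACH1, was raised by the knockdown in libraries that varied widely. HMOX1 (ENSG00000100292; 22:35380361-35394214, plus strand) was at 39.3, 36.5, 27.0, 45.3 and 49.4 CPM in DMSO, ran from 23.4 through 34.2 to 49.7 CPM in 4OHT siNT and from 37.5 through 56.3 to 72.0 CPM in 4OHT siSMARCA4. All 3 groups overlapped. The log2 fold change was -0.15 (SE 0.22, adjusted p 0.574) with 4OHT, called lower with siRNA number 2 alone (-0.48, adjusted p 0.0336), and 0.64 (SE 0.21, adjusted p 0.0301) with siSMARCA4. That call was lost on leaving out siNT 2-1VM, 2-2VM or 2-3VM or siSMARCA4 2-1VM, 2-3VM or 4-2VM, with an adjusted p of 0.0764 for the last. In a fit by siRNA number the rise was 1.20 for number 2 (adjusted p 0.00168) and 0.22 for number 4 (adjusted p 0.497). Against the siNT libraries, V libraries gave 0.32 (adjusted p 0.393) and VM libraries 0.90 (adjusted p 0.00740).

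Of 17 further genes of quinone and carbonyl detoxification and export, 12 were lower and 1 higher with 4OHT, and 4 were higher and 1 lower with the knockdown. AKR1C3 fell with 4OHT from 2.60 ± 0.864 to 0.221 ± 0.0572 CPM (log2 fold change -3.55, SE 0.29, adjusted p 7.33e-09) and the exporter ABCC3 from 20.0 ± 2.70 to 3.86 ± 1.88 CPM. AKR1B1, aldose reductase, rose at both steps, from 198 ± 27.6 CPM in DMSO to 769.6 ± 53.5 CPM in 4OHT siNT and 1382 ± 329.6 CPM in 4OHT siSMARCA4. PIR, the iron-binding nuclear protein pirin, fell with 4OHT by 1.30 and rose with the knockdown from 3.87 ± 0.605 to 8.92 ± 2.27 CPM (log2 fold change 1.20, SE 0.18, adjusted p 0.000137). The aldo-keto reductases AKR1C1, AKR1C2 and AKR1C3 are closely related in sequence, so the split of reads among them may be uncertain.

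Haem and iron genes moved as unevenly, with 3 of 8 higher and 1 lower after the knockdown and 2 higher and 4 lower after 4OHT. BLVRB, biliverdin reductase B, rose with the knockdown from 15 ± 2.51 to 32.1 ± 9.06 CPM (log2 fold change 1.10, SE 0.16, adjusted p 0.000158) after a fall of 1.00 with 4OHT. FTH1, the ferritin heavy chain, rose with the knockdown from 3115 ± 555 to 5279 ± 928 CPM (0.76, SE 0.15, adjusted p 0.00151), a level made uncertain by its many pseudogenes. The iron exporter SLC40A1 fell at both steps, by 1.63 and then 1.53. TFRC, the transferrin receptor, rose with 4OHT by 0.75, and FECH, which makes haem, fell with 4OHT by 1.14 (SE 0.07, adjusted p 2.37e-10).

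SOD2 had the largest total change of the members. SOD2 (ENSG00000291237; 6:159669069-159762529, minus strand) was at 246, 176, 122, 155 and 159.7 CPM in DMSO. It ran from 400.3 CPM through a median of 480.5 to 613 CPM in 4OHT siNT and from 927 CPM through 1056 to 1327 CPM in 4OHT siSMARCA4, with no overlap among the 3 groups. The log2 fold changes were 1.53 (SE 0.15, adjusted p 8.19e-08) with 4OHT, 1.11 (SE 0.14, adjusted p 4.21e-05) with siSMARCA4 and 2.64 (SE 0.16, adjusted p 7.58e-11) for both together, a 6.24-fold difference. The call held on leaving out each library in turn in each comparison. The cytosolic dismutase SOD1 fell with 4OHT from 201 ± 34.6 to 146 ± 13.6 CPM (log2 fold change -0.46, SE 0.13, adjusted p 0.00622) and was 167 ± 32.8 CPM with siSMARCA4 (0.20, SE 0.13, adjusted p 0.280). The log2 ratio of SOD2 to SOD1 within a library was 2.01 higher with 4OHT than DMSO and 0.94 higher with siSMARCA4 than siNT, both without overlap (exact permutation test, adjusted p 0.00974 for each). Catalase, CAT, fell with 4OHT by 0.44 (SE 0.08, adjusted p 8.28e-05). Of the 4 genes in its list, SOD1 and CAT included, 0 were higher and 3 lower with 4OHT, and 1 was higher and 0 lower with the knockdown. That 1 was the extracellular dismutase SOD3 (log2 fold change 1.68, SE 0.32, adjusted p 0.00125, with overlap), named after its values were seen.

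NOX4 was scarce in all groups. NOX4 (ENSG00000086991; 11:89324353-89498187, minus strand) was at 2.30, 2.57, 5.86, 3.00 and 3.49 CPM in DMSO and ran from 5.31 through 6.83 to 9.24 CPM in 4OHT siNT, where only the DMSO library 2-2VM reached the 4OHT range (log2 fold change 1.05, SE 0.27, adjusted p 0.00276). With siRNA number 4 alone, which left DMSO with 4-2VM and 4-3VM, the rise was 0.83 and not called (adjusted p 0.0969). In 4OHT siSMARCA4 it ran from 2.33 through 4.92 to 7.17 CPM, and the difference from siNT of -0.55 (SE 0.25, adjusted p 0.123) was not called. Of 14 other NADPH oxidase genes only 6 had counts enough to be tested. Of these, 4OHT raised 1 and lowered 2, and the knockdown raised 1 and lowered 2. With 4OHT, CYBA, the membrane partner of NOX enzymes, rose by 0.73 (SE 0.11, adjusted p 1.44e-05) and NOXA1 fell by 1.24. RAC1, a GTPase of oxidase complexes among other roles, rose with the knockdown by 0.48 (SE 0.10, adjusted p 0.00266).

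Set side by side with DMSO, senescent cells with SMARCA4 knocked down had 6 members higher (26.5% of all genes were) and 1 lower (28.6% were). Those higher were NFE2L2, GCLC, GCLM, TXNRD1, SRXN1 and SOD2, and the lower one was NQO1. HMOX1 (log2 fold change 0.49, SE 0.22, adjusted p 0.0652), SLC7A11 and NOX4 (0.50, SE 0.27, adjusted p 0.121) were not called. HMOX1 passed without DMSO 4-3VM (0.58, adjusted p 0.0406) or siSMARCA4 4-2V (0.58, adjusted p 0.0303), and NOX4 without DMSO 2-2VM (0.75, adjusted p 0.0190) or siSMARCA4 4-2VM (0.65, adjusted p 0.0326), while among VM libraries alone NOX4 changed sign (-0.28, adjusted p 0.468). The rise of GCLM was lost among VM libraries alone (0.17, adjusted p 0.195) and with siRNA number 4 alone (0.23, adjusted p 0.201), which left DMSO with 4-2VM and 4-3VM. This comparison shares its libraries with both others. Per kilobase of merged exons the order of mean levels in 4OHT siSMARCA4 was TXNRD1 (120.3 CPM per kilobase), NQO1 (66.7 ± 15.9), SOD2 (59.1 ± 8.02), SRXN1 (36.9), HMOX1 (24), SLC7A11 (12 ± 4.49), GCLM (9.32 ± 0.498), NFE2L2 (8.83 ± 0.707), GCLC (5.96) and NOX4 (0.801). Merged exons cover all annotated transcripts of a gene, 18144 bases for SOD2 and 6710 for TXNRD1, so this order depends on the annotation. In mean CPM SOD2 stood first, at 1072, ahead of TXNRD1 at 807. The place of SRXN1 is uncertain, since it received 50.15% to 51.58% of the counts of an overlapping pair. NQO1 and SOD2, and GCLM and NFE2L2, differed by less than their SD, and SLC7A11 differed from both GCLM and NFE2L2 by less than its own. Its V libraries, at 7.46 to 8.39 CPM per kilobase, lay below all 6 GCLM libraries and its VM libraries, at 14.4 to 17.5, above them. In DMSO siNT the order opened with NQO1 (100.1 ± 8.71 CPM per kilobase) ahead of TXNRD1 (77.0 ± 5.90), and SOD2 stood at 9.47 ± 2.54.

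The siSMARCA4 libraries split by the V and VM letters in their labels, a division examined after the data had been seen. The fits took these libraries as independent, though some differ in these letters alone. VM libraries lay above every V library for 6 members, NFE2L2, NQO1, HMOX1, SLC7A11, TXNRD1 and SRXN1, and below every V library for 2, GCLC and NOX4. Among all genes tested, VM lay above every V library for 10.6% and below for 11.7%. GCLM and SOD2 overlapped. SLC7A11 was at 71.9, 78.9 and 80.9 CPM in V and 139, 155 and 169 CPM in VM libraries, a log2 difference of 1.00 (SE 0.17, adjusted p 0.00413). It was the 1 member called, where 3.7% of all genes were. TXNRD1 was at 665, 689.8 and 710.0 CPM in V and 874, 939 and 965 CPM in VM libraries (0.43, SE 0.12, adjusted p 0.0671). HMOX1 was at 37.5, 45.0 and 50.7 against 61.9, 64.8 and 72.0 CPM (0.58, SE 0.27, adjusted p 0.269), and NOX4 at 5.82, 6.10 and 7.17 against 2.33, 3.89 and 4.01 CPM (-0.90, SE 0.26, adjusted p 0.0679).

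SMARCA4 itself was lower in the VM than in the V libraries of siSMARCA4, at 71.9 ± 5.54 against 104 ± 22.0 CPM (SD, n = 3 in both; log2 difference -0.54, SE 0.12, adjusted p 0.0201). The part of this, and of whatever the letters stand for, in the members' split was not tested. Since all 4OHT siNT libraries were VM, the VM libraries of both groups could be compared with each other. On that basis SLC7A11 rose by 1.52 (SE 0.14, adjusted p 1.92e-06), TXNRD1 by 0.94, HMOX1 by 0.90, NQO1 by 0.56 and SRXN1 by 0.35 (SE 0.07, adjusted p 0.00218), and NOX4 fell by 1.07 (SE 0.24, adjusted p 0.00307), so that 8 members were called higher and 1 lower, where 11.7% of all genes were called higher and 15.7% lower. The V libraries of siSMARCA4, set against the same siNT libraries, gave 4 called higher and 0 lower, with fewer calls over all genes as well (5.11% higher and 7.03% lower). These were GCLM at 0.45, SLC7A11 at 0.52, TXNRD1 at 0.51 and SOD2 at 1.07. In the DMSO group edgeR called 0 members between VM and V, where 0.765% of all genes were called. The V libraries there were 2-1V and 2-2V. An unadjusted p under 0.05 was found for 5 members, as for 13% of all genes. Of these, NFE2L2 (-0.38), GCLM (0.28), SOD2 (-0.54) and NOX4 (0.76) differed in sign from siSMARCA4 (0.18, -0.0076, 0.07 and -0.90). SRXN1 was higher in VM in both groups (0.37 and 0.25).

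**Figure D4:**
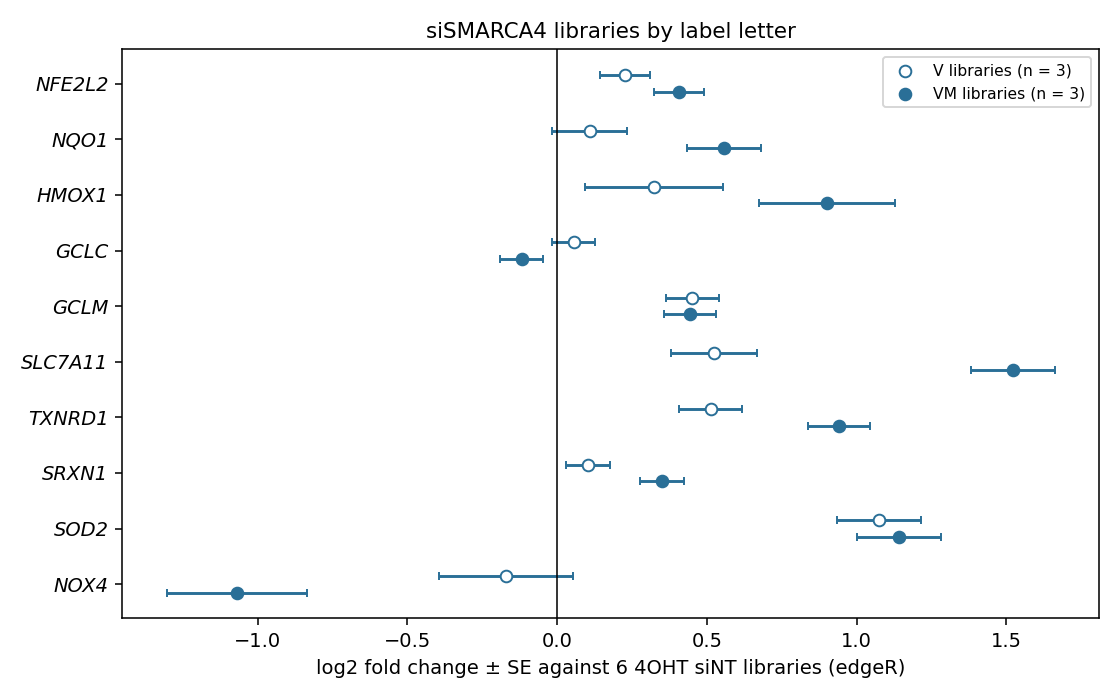
Log2 fold change ± SE (edgeR) of each member in the V (open) and VM (filled) libraries of 4OHT siSMARCA4, 3 each, against the 6 4OHT siNT libraries, which are all VM. GCLM and SOD2 coincide within their SE, and SLC7A11 lies at 0.52 for V and 1.52 for VM.

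Both siRNA numbers were compared, since the labels give a number 2 and a number 4 for siNT as well as siSMARCA4. Whether an siNT number is the control of the same siSMARCA4 number is not given, so a difference may lie between the controls. A test of the difference between their effects (12 4OHT libraries) called 0 of 10 members with edgeR, where 1.07% of all genes were called. HMOX1 came nearest, with a rise of 1.20 (SE 0.21, adjusted p 0.00168) for number 2 and 0.22 (SE 0.20, adjusted p 0.497) for number 4, and a difference of -0.98 (SE 0.29, p 0.00493 before and 0.126 after adjustment in edgeR), the 1 member at an unadjusted p under 0.05, where 15.8% of all genes were. The numbers are unbalanced for the closing letters in siSMARCA4, with 1 V and 2 VM libraries for number 2 and 2 V and 1 VM for number 4. With V or VM as a covariate the difference in HMOX1 was called (-0.80, edgeR adjusted p 0.0380, 1.98% of all genes called). Without the low-count filter it was -0.97 (edgeR adjusted p 5.88e-07, 2.43% called). That fit gave near-equal SE to HMOX1 (0.161), NFE2L2 (0.159) and SLC7A11 (0.159), against 0.287, 0.116 and 0.429 with the filter. Its p-value therefore reflects little of the spread of HMOX1 itself between libraries. Leaving out siSMARCA4 4-2VM also brought HMOX1 past (-1.27, adjusted p 0.0107), together with NOX4 (1.01, adjusted p 0.0422), where 6.13% of all genes were called. Number 4 of siSMARCA4 then held V libraries only, so its effect and that of the letters cannot be told apart in that fit. Within 4OHT siNT alone, HMOX1 ran from 23.4 to 27.3 CPM in the number 2 libraries and from 41.1 to 49.7 CPM in the number 4 libraries (log2 difference 0.86, SE 0.21, adjusted p 0.0343), the 1 member called, where 4.9% of all genes were. In siSMARCA4 the same contrast was -0.12 (SE 0.20, adjusted p 0.804), where 0.381% of all genes were called. The rise of HMOX1 under number 2 was therefore measured from a lower siNT level.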

How the data were processed

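RNA was poly(A)-selected, sequenced strand-specifically as read pairs, and counted in 17 libraries. The authors deposited expected counts per gene and repeat locus, which are whole numbers without normalisation. Per the submitters' notes, reads were trimmed with Cutadapt 4.7 and aligned to GRCh38 with HISAT2 2.2.1. The authors then counted with TElocal in its reverse-stranded mode for multi-mapping reads, where a pair is divided by likelihood over the places it aligns to, so copies of a gene may exchange counts. Their methods name an earlier Ensembl gene set, but 62700 of the 62754 gene IDs in the tables are those of GENCODE 44, including the ID of SOD2, and symbols and positions were taken from there.

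Genes and repeat subfamilies, with loci summed, were filtered by filterByExpr (minimum count 10, minimum total 15), which kept 19473 genes, and scaled by TMM (factors 0.949 to 1.08). A quasi-likelihood model with a term per group over all 17 libraries was tested with edgeR 4.0.16 (R 4.3.3) and adjusted by Benjamini-Hochberg over genes. The steps were tested on simulated data. Ratios were compared by exact 2-sided permutation (scipy 1.17.1). Alternatives were other size factors, no filter, genes alone, DESeq2 1.42.0, fewer groups, covariates, subsets of labels and leaving out each library. No 2 libraries agreed within counting noise. All 10 members, the listed genes with the largest rises and falls free of overlap (up to 2 each per list, for 4OHT and for the knockdown), SMARCA4, KEAP1, BACH1 and SOD1 are named, except 1 listed gene that is not reported here. Members and lists were chosen with earlier results of these data known. Errors are SD unless SE is written. SE of a log2 fold change was derived from the edgeR test, as its absolute value divided by the square root of the F statistic.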

Additional observations from a re-analysis of the deposited data

Results flagged for a closer look

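Of 39 sets of values examined, 10 members and 3 ratios in 3 groups each, 2 held a library far from the others by Dixon's criterion, which chance meets in about 1 of 20 sets. NQO1 was 342 CPM in the DMSO siNT library 4-3VM, against 279.8 to 295 CPM in the other 4. The log2 ratio of NFE2L2 to KEAP1 was 1.06 in the 4OHT siSMARCA4 library 4-3V, against 0.24 to 0.53 in the other 5.

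Within 4OHT siSMARCA4 the level of SLC7A11 was 1.00 higher on the log2 scale in VM than in V libraries (edgeR adjusted p 0.00413), and every VM library was above every V library. All 4OHT siNT libraries were VM, so the effect of siSMARCA4 among V libraries was not measured, and a difference of effects was not tested. What the letters stand for is not given, and a cause was not tested.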

How the results depend on the processing

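Of 673 recomputed log2 fold changes of members, 616 kept their direction and their side of the threshold, 26 lost the call, 21 gained it and 10 changed sign. Of 117 recomputed ratio differences, 102 kept both, 6 lost the call, 2 gained it and 7 changed sign. All 6 losses fell in VM libraries alone, where no ratio passed the threshold. Differences taken between libraries of the same label had no p-value, so for these only direction and size were compared. Counts of members called stayed within 1.5 times of those reported under other size factors, genes alone, DESeq2, only the groups compared and siRNA number as a covariate. With siRNA number 4 alone the knockdown raised 3 members (3.64% of all genes tested in that fit), 4OHT raised 2 (20.1%), and 0 were lower against DMSO (20% of all genes). Comparisons with DMSO in that fit used its libraries 4-2VM and 4-3VM alone. With number 2 alone 4OHT lowered 4 (27.5%). VM libraries alone gave 1 member lower with the knockdown, NOX4 (15.3%). The difference between siRNA numbers gave 1 member without a low-count filter (2.43% of all genes) and 1 with V or VM as a covariate (1.98%), HMOX1 in both. SE in the unfiltered fit were near equal for most members, so that call reflects little of the spread of HMOX1 itself. On leaving out a library the difference between numbers gave 0 to 2 (0.0855% to 6.13% of all genes). The 2 came without siSMARCA4 4-2VM, which left number 4 of siSMARCA4 with V libraries only. Leaving out 1 library of the groups compared gave 5 to 8 members higher with the knockdown, where 7.87% to 11.4% of all genes were.

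Some values changed sign. GCLC with the knockdown was 0.0087 without a filter, 0.067 with number 4 alone and -0.052 to 0.000376 on leaving out a library. NFE2L2 with 4OHT was -0.0091 with number 2 alone and -0.025 to 0.11 on leaving out a library, TXNRD1 with 4OHT was 0.049 with number 4 alone, and NOX4 against DMSO went from 0.50 to -0.28 in VM libraries alone. The cause was not tested.

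Ratios in VM libraries alone, where 3 libraries remain in 2 of the groups and adjusted p began at 0.0536, were for GCLM to GCLC 0.57 (knockdown) and -0.84 (4OHT), for SOD2 to SOD1 0.82, 2.26 and 3.08 (both), and for NFE2L2 to KEAP1 0.27 and, against DMSO, 0.14. Leaving out a library, NFE2L2 to KEAP1 ran from -0.12 to 0.12 against DMSO and from -0.46 to -0.23 for 4OHT, past the threshold without DMSO 4-3VM, and GCLM to GCLC against DMSO ran from -0.31 to -0.094.

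Deviations from the group mean were correlated between libraries with the same siRNA number, replicate number and letters. The values were 0.0524, 0.297 and -0.105 for the knockdown and -0.45, -0.308 and 0.208 for 4OHT, so such libraries were not taken as pairs. Libraries alike in replicate number and letters, but with the other siRNA number, gave -0.0469, 0.0462 and 0.101 for the knockdown. For 4OHT they gave 0.344, 0.399 and 0.531, so a shared deviation by replicate number was not excluded there. With a block on replicate number and letters the knockdown raised 8 members, where 9.66% of all genes were higher. SRXN1 was gained at 0.35 (adjusted p 0.00584), and no other call among the members changed. NOX4, at a few CPM, had the largest SE of the members in the comparisons of the 3 groups.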
